A study of Homo sapiens with 6 samples.

Results

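The transcripts of 9 surface proteins used to sort progenitor or stem-like cells of the breast were followed through 6 sorted RNA libraries of the basal-like breast cancer lines MDA-MB-468 and HCC70. The proteins are CD44, EPCAM, PROM1 (CD133), ALCAM (CD166), BCAM (CD239), MME (CD10), PROCR (CD201), THY1 (CD90) and CD24. Their genes were taken as a named set by Entrez Gene ID, not by a cut on their values, but with earlier results of these data known. All 9 had a row among the 18795 genes of the table. Each line, an established culture from ATCC grown with 10% serum, was fixed in methanol, stained and sorted by flow cytometry into 3 populations: K18+Vim+ cells stained for keratin 18 plus vimentin, K18+K14+ cells for keratin 18 plus keratin 14, and K18+ cells for keratin 18. Each line gave 1 library of each population. A population thus had n = 2 libraries, 1 from each line, and p-values for populations measure how far these 2 lines differ, not the spread between cultures. A line had n = 3 libraries, 1 of each population. P-values between the lines measure how far the line difference varies between populations, again not the spread between cultures.

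These proteins mark different positions in the mammary epithelium. EPCAM and CD24 are high on luminal cells, PROM1 marks a luminal subset, MME marks myoepithelial cells, and PROCR was described in mice on a multipotent basal population with features of mesenchymal cells. The combination of high CD44 with low CD24 on EPCAM-positive cells is a widely used sort for tumour-initiating cells. THY1 is found on fibroblasts and some basal cells. A transcript level need not follow the surface protein that a sort reads.

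The level of a transcript is given in FPKM, fragments scaled to transcript length and to sequencing depth, as the authors deposited it. The lowest value in the table, 0.1 FPKM, is a floor at which genes are merely listed. The number of reads behind a value is not given. The antigen genes followed the labels in part: VIM stood at 259 FPKM in the MDA-MB-468 K18+Vim+ library against 12.2 FPKM in K18+ and at 54.8 FPKM in K18+Vim+ against 13.4 FPKM in K18+ of HCC70, while KRT18 stood at 67.7 FPKM in MDA-MB-468 K18+Vim+ against 464 FPKM in K18+. KRT14 was highest in the K18+K14+ library of both lines, at 279 FPKM in MDA-MB-468 and 48.6 FPKM in HCC70. The MDA-MB-468-labelled K18+Vim+ library differed most from its line. Across 12454 genes its Pearson correlation with the other MDA-MB-468 libraries was 0.79 and 0.83, against 0.92 between those. SMAD4 and RB1, deleted in MDA-MB-468, were listed at 5.19 and 6.68 FPKM in it and at 0.269 to 0.566 FPKM in the other MDA-MB-468 libraries. EGFR, amplified in that line, was at 10.4 FPKM in it against 70.7 FPKM in K18+K14+ and 153 FPKM in K18+. These levels go against the line's label, and whether the library came from other cells was not tested. A ratio of K18+Vim+ within MDA-MB-468 therefore compares libraries by their labels, and fitted differences of the 9 genes are also given without this library. In bulk libraries, fewer cells with a transcript and less of it in each cell cannot be told apart.

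CD44, the receptor for the matrix sugar hyaluronan, had the highest level of the 9 genes in every library. Its level in MDA-MB-468 was 31.3 FPKM in K18+Vim+, 229.8 FPKM in K18+K14+ and 521 FPKM in K18+. In HCC70 it stood at 129 FPKM in K18+Vim+, 145 FPKM in K18+K14+ and 158 FPKM in K18+. Within HCC70 the 3 populations therefore lay close together (144 ± 14.6 FPKM, SD, n = 3), while the libraries labelled MDA-MB-468 were spread widely (261 ± 246 FPKM, SD, n = 3). Without the K18+Vim+ library the MDA-MB-468 values differed 2.27-fold. Even the lowest value, in the MDA-MB-468-labelled K18+Vim+ library, exceeded 85.1% of all genes in that library.

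EPCAM, an epithelial adhesion molecule, stood at 8.41 FPKM in K18+Vim+, 107.8 FPKM in K18+K14+ and 114.8 FPKM in K18+ of MDA-MB-468. In HCC70 the levels were 41.7 FPKM in K18+Vim+, 53.7 FPKM in K18+K14+ and 69.3 FPKM in K18+. K18+Vim+ was the lowest and K18+ the highest in both lines. PROM1, a pentaspan protein of membrane protrusions, stood at 6.94 FPKM in K18+Vim+, 89.6 FPKM in K18+K14+ and 68.7 FPKM in K18+ of MDA-MB-468. In HCC70 it stood at 30.9 FPKM in K18+Vim+, 60.6 FPKM in K18+K14+ and 54.2 FPKM in K18+. K18+Vim+ was again the lowest in both lines, but here K18+K14+ was the highest.

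ALCAM, an adhesion molecule of the immunoglobulin superfamily, stood at 12.8 FPKM in K18+Vim+, 48.4 FPKM in K18+K14+ and 43.5 FPKM in K18+ of MDA-MB-468. In HCC70 it stood at 8.23 FPKM in K18+Vim+, 22.9 FPKM in K18+K14+ and 30.2 FPKM in K18+. Both K18+Vim+ values lay below the other 4. BCAM, a laminin receptor of the same superfamily, stood at 11.9 FPKM in K18+Vim+, 35.8 FPKM in K18+K14+ and 60.2 FPKM in K18+ of MDA-MB-468. In HCC70 it stood at 52.3 FPKM in K18+Vim+, 21.4 FPKM in K18+K14+ and 29.6 FPKM in K18+. The K18+Vim+ library was thus the lowest of MDA-MB-468 and the highest of HCC70.

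MME, a membrane peptidase, stood at 2.15 FPKM in K18+Vim+, 4.97 FPKM in K18+K14+ and 10.02 FPKM in K18+ of MDA-MB-468, and at 1.56, 2.38 and 1.70 FPKM in the same order in HCC70. The lines overlapped only at the MDA-MB-468-labelled K18+Vim+ library. PROCR, the endothelial protein C receptor, stood at 7.10 FPKM in that library, at 0.116 FPKM in MDA-MB-468 K18+K14+ and at 0.684 FPKM in MDA-MB-468 K18+. In HCC70 it was listed at 0.1 FPKM in K18+Vim+, 0.110 FPKM in K18+K14+ and 0.1 FPKM in K18+. It was clearly above the floor in 1 library. THY1, a GPI-anchored glycoprotein, was at the floor in 5 libraries and at 0.177 FPKM in HCC70 K18+.

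**Figure D1:**
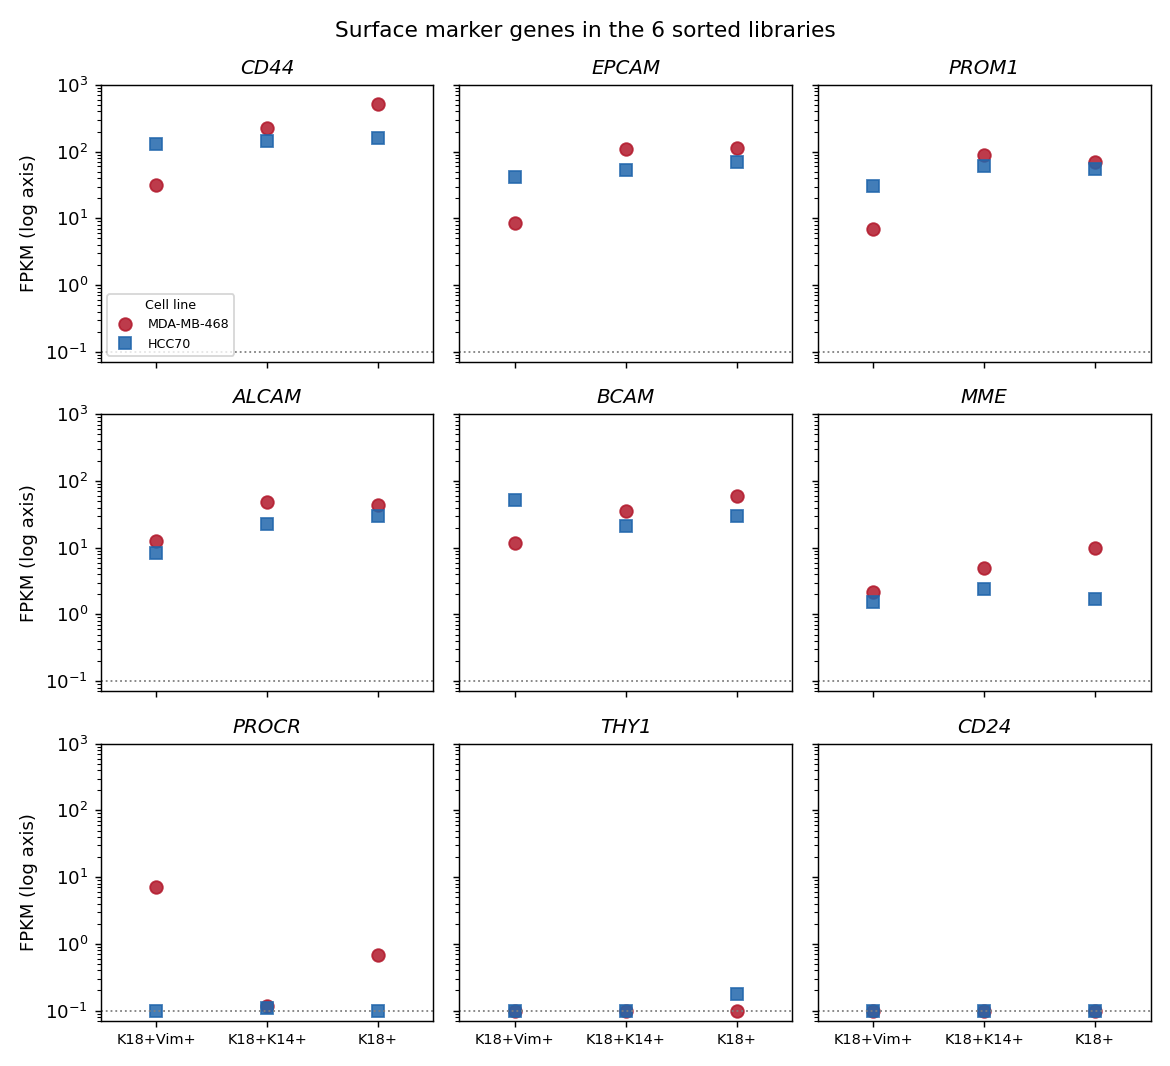
FPKM (log axis) of the 9 genes in each library, with the populations along the x axis, circles for MDA-MB-468 and squares for HCC70; each point is 1 library and the dotted line is the floor of 0.1 FPKM. The K18+Vim+ point of MDA-MB-468 is the lowest of its line for 6 genes and the highest for PROCR, and CD24 lies on the floor in all 6 libraries.

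CD24, a short GPI-anchored mucin-like protein, was listed at the floor in all 6 libraries, as were 2096 of the 18795 genes. The table therefore gives no CD44 to CD24 ratio. Of the 2464 windows of 50 bases in the longest CD24 transcript in GENCODE 29, 160 (6.49%) occur unchanged in transcripts of 49 other genes, 117 of them in CD24 pseudogenes. The shares were 2.57% for EPCAM, 0.767% for PROM1 and 0% for the other 6 genes. Whether CD24 reads were present and assigned elsewhere was not tested, nor was whether the build of the data, GRCh37, holds a placed CD24 locus. The floor value is therefore not read as absence of CD24 RNA. With EPCAM in place of CD24, a choice made after the values were seen, the ratio of CD44 to EPCAM was 3.72 in K18+Vim+, 2.13 in K18+K14+ and 4.54 in K18+ of MDA-MB-468. In HCC70 it was 3.09 in K18+Vim+, 2.70 in K18+K14+ and 2.28 in K18+. The ratio spanned 2.13 to 4.54 while CD44 itself ranged from 31.3 to 521 FPKM, and no population had the highest ratio in both lines.

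Upstream sequences are shown for 3 genes that stood lower together in K18+Vim+ libraries (ALCAM, PROM1 and CD44) and for PROCR, which did not. Each is the 250 bases before the first listed start, on the strand of the gene, from RefSeq on GRCh38.p14, which is not the build of the data. The table held 7 of the 9 genes. Capitals mark CAGGTG (an E-box recognised by ZEB and Snail repressors), CCGCCC (the GC box of SP1) and TATAAA, each searched on both strands.
ALCAM (chr3:105366659-105366908, plus strand): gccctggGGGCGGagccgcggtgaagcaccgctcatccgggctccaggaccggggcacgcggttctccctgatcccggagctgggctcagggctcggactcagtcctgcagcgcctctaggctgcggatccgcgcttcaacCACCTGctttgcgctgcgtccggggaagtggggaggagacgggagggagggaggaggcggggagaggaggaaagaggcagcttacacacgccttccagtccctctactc
PROM1 (chr4:16084024-16084273, minus strand): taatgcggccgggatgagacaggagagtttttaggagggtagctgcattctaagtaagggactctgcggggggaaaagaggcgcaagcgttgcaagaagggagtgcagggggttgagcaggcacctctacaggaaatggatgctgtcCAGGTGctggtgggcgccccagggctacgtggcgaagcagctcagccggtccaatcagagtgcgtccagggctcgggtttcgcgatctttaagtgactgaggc
CD44 (chr11:35138921-35139170, plus strand): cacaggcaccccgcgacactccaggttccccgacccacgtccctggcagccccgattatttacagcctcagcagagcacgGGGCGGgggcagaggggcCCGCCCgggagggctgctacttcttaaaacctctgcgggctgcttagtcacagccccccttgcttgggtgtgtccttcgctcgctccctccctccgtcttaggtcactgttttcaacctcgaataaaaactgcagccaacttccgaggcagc
PROCR (chr20:35171822-35172071, plus strand): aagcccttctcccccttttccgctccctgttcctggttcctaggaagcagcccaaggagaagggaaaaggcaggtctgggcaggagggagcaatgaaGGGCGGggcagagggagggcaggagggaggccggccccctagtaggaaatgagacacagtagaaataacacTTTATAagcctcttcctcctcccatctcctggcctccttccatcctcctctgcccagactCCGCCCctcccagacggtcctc
CAGGTG occurred once each upstream of ALCAM and PROM1 and was not found in these windows of CD44, PROCR, CD24, MME and BCAM. It is present in 17.5% of 27305 upstream windows of this length. CCGCCC, present in 42.3% of windows, was found for all 7 genes but PROM1, and TATAAA, present in 11.1%, for PROCR alone. The PROCR window held 5 CpG dinucleotides, against 13 in PROM1, 15 in CD44 and 20 in ALCAM (median of all windows, 11). For PROCR alone, the bases after the listed start were not found in its GENCODE transcripts. Whether this window lies at the start used in these cells was not tested.

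K18+Vim+ and K18+ cells were compared to ask which surface markers accompany vimentin. CD44, EPCAM, PROM1, ALCAM and MME had lower values in the K18+Vim+ library of both lines, but for all except ALCAM the size differed widely between the lines. ALCAM was 3.39-fold lower in MDA-MB-468 and 3.67-fold lower in HCC70. EPCAM was 13.6-fold lower between the libraries labelled MDA-MB-468 and 1.66-fold lower in HCC70, PROM1 9.91-fold and 1.75-fold, and CD44 16.7-fold and 1.23-fold. MME was 4.66-fold lower in MDA-MB-468 and 1.09-fold lower in HCC70. BCAM was 5.08-fold lower in MDA-MB-468 and 1.76-fold higher in HCC70, and PROCR was 10.4-fold higher in MDA-MB-468 and at the floor in both HCC70 libraries.

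Differences were tested with limma on log2(FPKM + 1), a scale that understates differences of low genes, with population and line as terms and p-values adjusted over the 12454 genes that averaged 1 FPKM or more. Of the 9 genes 7 passed this filter. THY1 and CD24 did not, and PROCR passed only through the MDA-MB-468-labelled K18+Vim+ library. None of the 7 passed an adjusted p of 0.05, nor did any other gene (0%; 4.27% had an unadjusted p under 0.05). ALCAM had the smallest standard error of the 7, with a fitted log2 difference of -1.72 ± 0.39 (SE, n = 2 per population, limma adjusted p = 0.863, unadjusted p = 0.00349). The differences of EPCAM (-2.17 ± 0.79), CD44 (-2.15 ± 0.85) and PROM1 (-1.96 ± 0.67) were larger with wider errors (limma unadjusted p between 0.0243 and 0.0423). The libraries of the 2 populations did not overlap for CD44, EPCAM, PROM1 and ALCAM, all lower in K18+Vim+. That is 4 of 7 genes, where 15.6% of all genes tested showed the same, and 0 of 7 were higher without overlap (6.81% of all genes). Lower values in both lines were found for 5 of 7 (33.9% of all genes) and opposite signs for 1 of 7, BCAM (48.3%). These counts include the MDA-MB-468-labelled K18+Vim+ library. Within HCC70 the K18+Vim+ library was the lowest of the 3 for 5 of 7 (42.6% of all genes) and the highest for 1 of 7 (25.6%). The median log2 ratio of the 7 was -2.25 in MDA-MB-468 and -0.29 in HCC70, beside -0.04 and -0.16 over all genes tested in those lines.

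**Figure D2:**
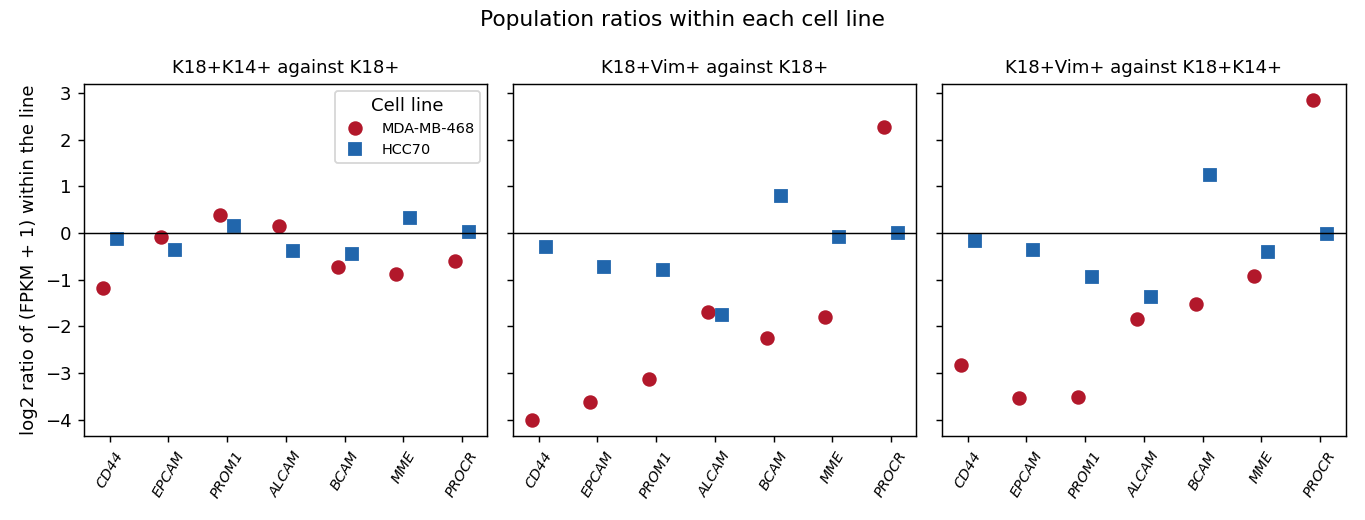
Log2 ratio of (FPKM + 1) between populations within each line for the 7 genes that passed the filter; circles are MDA-MB-468, squares HCC70, and each point is 1 pair of libraries. In K18+Vim+ against K18+ the ALCAM points lie close together at -1.69 and -1.76, while those of CD44 lie at -4.02 and -0.29.

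Without the MDA-MB-468-labelled K18+Vim+ library, HCC70 K18+Vim+ was the sole library of its population and was assumed to vary like the others. The K18+ level in such a fit draws on both lines, so its differences are not the ratios within HCC70. Those log2 ratios were -0.29 for CD44 and -0.08 for MME. In that fit ALCAM had a fitted difference of -1.62 ± 0.46 (SE), close to that of all libraries. CD44 then differed by -0.56 ± 0.61, MME by -0.38 ± 0.51, EPCAM by -0.65 ± 0.48, PROM1 by -0.74 ± 0.47 and BCAM by 0.73 ± 0.45 (limma adjusted p between 0.904 and 0.93), and 0% of all genes passed. Without the HCC70 K18+Vim+ library, the MDA-MB-468-labelled K18+Vim+ library was the sole library of its population and was assumed to vary like the others. In that fit 12% of all genes passed, and 5 of the 7 passed as lower (7.7% of all genes), from -1.82 for ALCAM to -3.75 for CD44 (limma adjusted p = 0.0331 and 0.00417). MME did not pass (limma adjusted p = 0.0971), and 0 of these 6 genes passed as higher (4.34% of all genes). PROCR, which entered the fit through the value compared here, stood 2.42 higher and is given without a test.

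**Figure D3:**
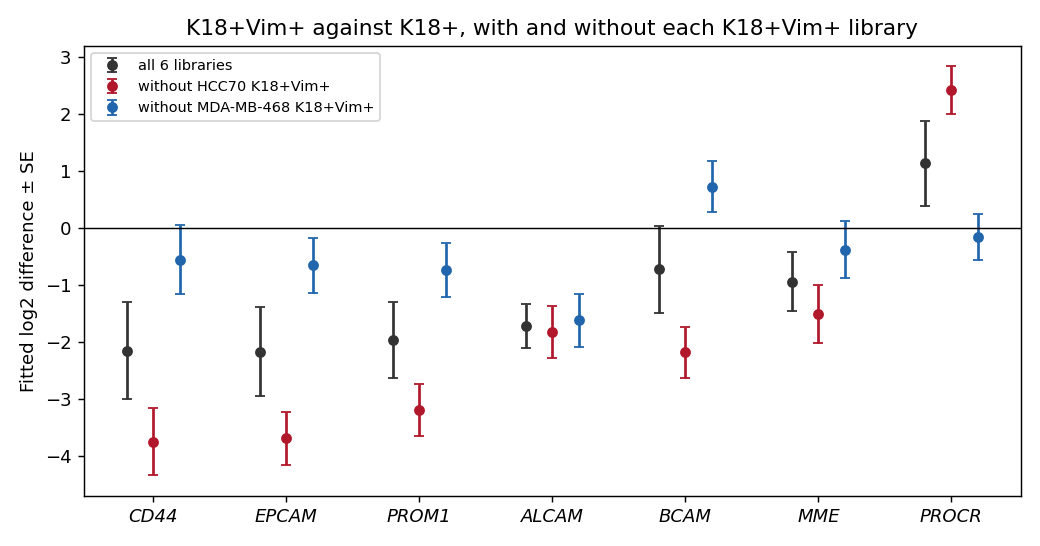
Fitted log2 difference of K18+Vim+ against K18+ (points) with its standard error (bars) for the 7 genes, with all 6 libraries and without either K18+Vim+ library. ALCAM stays between -1.82 and -1.62 in the 3 fits, while BCAM lies on opposite sides of 0 in the 2 reduced fits. PROCR also does, but its K18+Vim+ and K18+ values in HCC70 are both at the floor.

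Set against K18+K14+ rather than K18+, the K18+Vim+ libraries showed lower values of the same 5 genes, in a comparison that shares the K18+Vim+ libraries with the one above. ALCAM was 3.77-fold lower in MDA-MB-468 and 2.78-fold lower in HCC70, and PROM1 12.9-fold and 1.96-fold lower. EPCAM was 12.8-fold and 1.29-fold lower, CD44 7.35-fold and 1.13-fold, and MME 2.31-fold and 1.53-fold. For these 5 of 7 genes the populations did not overlap, against 9.7% of all genes tested. BCAM was 3.02-fold lower in MDA-MB-468 and 2.45-fold higher in HCC70. No gene passed (0%; 5.46% had an unadjusted p under 0.05), and the fitted differences of ALCAM and PROM1 were -1.60 ± 0.39 and -2.23 ± 0.67 (SE, n = 2 per population, limma adjusted p = 0.682 for both). Without the MDA-MB-468-labelled K18+Vim+ library, with HCC70 K18+Vim+ as the sole library of its population, they were -1.51 ± 0.46 and -1.005 ± 0.47. EPCAM was then at -0.42 ± 0.48, MME at -0.099 ± 0.51, BCAM at 1.32 ± 0.45 and CD44 at 0.094 ± 0.61. This fit too draws on both lines, and within HCC70 the log2 ratio of CD44 was -0.17. Without the HCC70 K18+Vim+ library 16% of all genes passed. ALCAM, BCAM, CD44, EPCAM and PROM1 passed as lower (8.57% of all genes; limma adjusted p between 0.00211 and 0.0426). Of these and MME, 0 passed as higher (7.4% of all genes), and PROCR is again left untested.

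K18+K14+ and K18+ cells were compared to ask which surface markers accompany keratin 14. The 7 genes differed less here. CD44 was 2.27-fold lower in MDA-MB-468 and 1.09-fold lower in HCC70, and BCAM 1.68-fold and 1.39-fold lower. PROM1 was the only one of the 7 with higher values in both lines, 1.30-fold in MDA-MB-468 and 1.12-fold in HCC70. EPCAM was 1.06-fold and 1.29-fold lower, a log2 ratio of -0.09 in MDA-MB-468 that lay above the median of all genes there (-0.17). Lower values in both lines were found for 3 of 7 genes, against 43.7% of all genes, and higher values for 1 of 7, against 20.2%. ALCAM, MME and PROCR had opposite signs in the 2 lines (34.5% of all genes). For 0 of the 7 did the populations lie apart, where 20.3% of all genes were lower and 6.6% higher without overlap. None of the 7 passed (0% of all genes; 3.44% had an unadjusted p under 0.05), and the fitted differences ranged from -0.65 ± 0.85 for CD44 to 0.27 ± 0.67 for PROM1 (SE, n = 2 per population, limma adjusted p between 0.892 and 0.966). Beside these values, ratios were lower for longer transcripts across 12409 genes, with a Spearman correlation of -0.325 in MDA-MB-468 and -0.248 in HCC70. The longest coding transcripts of CD44 and EPCAM have 5732 and 1724 bases. The part of length in these ratios was not tested.

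Between the lines, 7 of the 7 genes had higher values in MDA-MB-468 when only the K18+ and K18+K14+ libraries were read, without overlap, against 30.4% of all genes tested. For PROCR this rests on 0.116 and 0.684 FPKM in MDA-MB-468 against 0.110 and 0.1 FPKM in HCC70. With all 6 libraries 1 of 7 did not overlap, PROCR, beside 20.1% of all genes. PROCR passed the filter only through the MDA-MB-468-labelled K18+Vim+ library, so its place in these counts is not read as a result. Without that library 6 of 7 did not overlap (28% of all genes), PROCR among them. With all libraries the line difference passed for 0 of the 7, where 12.2% of all genes passed and 33% had a limma unadjusted p under 0.05. The largest differences relative to their error were MME at 1.05 ± 0.42 and ALCAM at 0.72 ± 0.31 (SE, n = 3 populations per line, limma adjusted p = 0.141 and 0.169). Without the MDA-MB-468-labelled K18+Vim+ library, MME rose by 1.43 ± 0.38 on the log2 scale (limma adjusted p = 0.0266), among 26.9% of all genes that passed. The differences of CD44 (1.19 ± 0.46), BCAM (0.86 ± 0.34) and EPCAM (0.86 ± 0.37) missed the threshold in that fit (limma adjusted p between 0.0869 and 0.113). Leaving out the HCC70 K18+Vim+ library instead gives the same differences by construction, since both fits then compare the lines over the same 4 libraries (27% of all genes passed). With all libraries CD44 differed between the lines by 0.12 and BCAM by -0.11, and both changed sign after quantile normalization, CD44 also after scaling to equal summed FPKM. Of the 1522 genes that passed between the lines 565 were higher in MDA-MB-468 and 957 lower, and after that scaling 483 were higher and 1442 lower.

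The binding partners of the 9 proteins were read from 8 lists of related genes, none of whose members passed in a comparison of populations. Of 7 laminin chain genes, which encode the ligands of BCAM, LAMA5 followed BCAM by library. LAMA5 encodes the alpha chain that BCAM binds, and it stood at 89.3 FPKM in K18+Vim+, 453 FPKM in K18+K14+ and 463 FPKM in K18+ of MDA-MB-468. In HCC70 it stood at 355 FPKM in K18+Vim+, 181 FPKM in K18+K14+ and 217 FPKM in K18+. ANPEP, a membrane peptidase like MME, stood at 7.08 FPKM in K18+Vim+, 32.7 FPKM in K18+K14+ and 116.6 FPKM in K18+ of MDA-MB-468 and at 178 FPKM in K18+Vim+, 60.8 FPKM in K18+K14+ and 89.6 FPKM in K18+ of HCC70. Both rank the libraries of each line as BCAM does, and both were singled out, with LAMB2, after their values were seen. Against K18+, 5 of the 7 laminin genes had lower values in K18+K14+ of both lines and 2 had higher ones, beside 43.7% and 20.2% of all genes. LAMA3 had the opposite directions to LAMA5 in K18+Vim+ against K18+, 5.48-fold higher in MDA-MB-468 and 1.72-fold lower in HCC70. LAMB1 was one of the 5 lower in K18+K14+, with log2 ratios of -1.36 in MDA-MB-468 and -0.76 in HCC70.

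**Figure D4:**
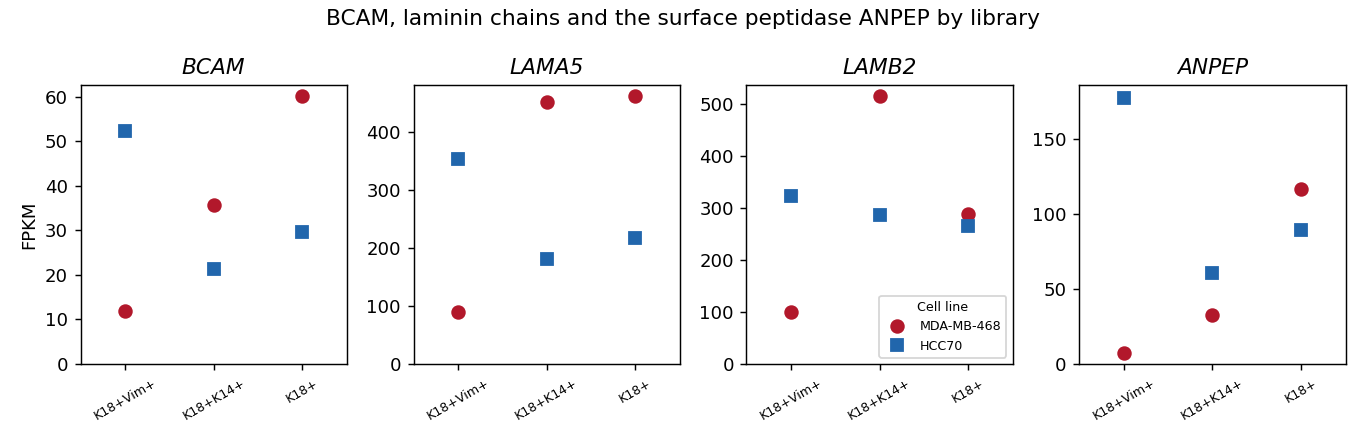
FPKM of BCAM, the laminin chain genes LAMA5 and LAMB2, and ANPEP by population, with circles for MDA-MB-468 and squares for HCC70; each point is 1 library. In HCC70 the K18+Vim+ value is the highest of the 3 for each gene, with BCAM at 52.3 FPKM, and in MDA-MB-468 it is the lowest, with BCAM at 11.9 FPKM.

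Of 10 partners and relatives of EPCAM, 7 had lower values in K18+Vim+ than in K18+ of both lines and none higher, beside 33.9% and 16.5% of all genes. SPINT1, an inhibitor of the EPCAM-cleaving protease matriptase, stood at 3.11 FPKM in K18+Vim+ against 53.0 FPKM in K18+ of MDA-MB-468, and 124 FPKM in K18+Vim+ against 160.0 FPKM in K18+ of HCC70. The list's median log2 ratio was -2.66 in MDA-MB-468 and -0.39 in HCC70. CD44 pre-mRNA is spliced under the epithelial regulator ESRP1, which stood at 3.88 FPKM in K18+Vim+ against 47.1 FPKM in K18+ of MDA-MB-468, and 111 FPKM in K18+Vim+ against 129 FPKM in K18+ of HCC70. CD44 isoforms are not resolved in these values. The list of genes that make, turn over or bind hyaluronan, bind CD44 inside the cell or cleave it held 13 tested genes. Of these, 5 were lower in K18+Vim+ of both lines and none higher, beside 33.9% and 16.5% of all genes. LYVE1, 1 of the 5, stood near the floor in HCC70 (0.1 FPKM in K18+Vim+ against 0.157 FPKM in K18+). It passed the filter only through MDA-MB-468. ADAM10, a sheddase of CD44, stood at 5.82 FPKM in K18+Vim+ against 14.4 FPKM in K18+ of MDA-MB-468, and 7.70 FPKM in K18+Vim+ against 17.7 FPKM in K18+ of HCC70. The hyaluronan synthase genes HAS1 and HAS2 were at or near the floor in every library.

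In the coagulation list, TFPI, an inhibitor of tissue factor, stood at 3.52 FPKM in K18+Vim+ against 17.4 FPKM in K18+ of MDA-MB-468, and 3.99 FPKM in K18+Vim+ against 8.80 FPKM in K18+ of HCC70. The K18+K14+ levels were also below those of K18+, at 5.64 FPKM in MDA-MB-468 and 4.31 FPKM in HCC70. PROC, the ligand of PROCR, stood at 0.896 FPKM in K18+Vim+, 9.97 FPKM in K18+K14+ and 4.75 FPKM in K18+ of MDA-MB-468, an order opposite to that of PROCR. In HCC70 it was at 0.472 FPKM in K18+Vim+, 0.141 FPKM in K18+K14+ and 0.291 FPKM in K18+. GPI anchor synthesis, the pathway that holds THY1 and CD24 on the membrane, had 26 tested genes. Of these, 5 were higher and 10 lower in K18+Vim+ than in K18+ of both lines, shares near those of all genes (16.5% and 33.9%). Of 10 tested relatives of PROM1, ALCAM, BCAM and MME, 3 were higher and 6 lower in this comparison, beside the same shares of all genes. The 3 higher were MCAM, MMEL1 and ECE2. Among the lower was PROM2, the paralog of PROM1, at 2.95 FPKM in K18+Vim+ against 38.2 FPKM in K18+ of MDA-MB-468. In HCC70 PROM2 stood at 98.3 FPKM in K18+Vim+ against 115.5 FPKM in K18+.

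Among 31 further surface markers of progenitor or stem-like cells, 24 were tested. In both lines K18+Vim+ exceeded K18+ for 1 of them and lay below it for 11, beside 16.5% and 33.9% of all genes. The one higher gene was MCAM (CD146), at 5.18 FPKM in K18+Vim+ against 1.37 FPKM in K18+ of MDA-MB-468, and 5.51 FPKM in K18+Vim+ against 3.47 FPKM in K18+ of HCC70. LGR4, a receptor for R-spondins, stood at 5.18 FPKM in K18+Vim+ against 16.2 FPKM in K18+ of MDA-MB-468, and 2.10 FPKM in K18+Vim+ against 3.41 FPKM in K18+ of HCC70. In K18+K14+ against K18+, 9 of the 24 were lower in both lines and 3 higher, beside 43.7% and 20.2% of all genes. ITGB1, the common beta 1 integrin, was 1 of the 9 lower. It stood at 13.5 FPKM in K18+K14+ against 33.3 FPKM in K18+ of MDA-MB-468, and 49.9 FPKM in K18+K14+ against 119.9 FPKM in K18+ of HCC70. Between the lines 8 of the 24 passed with limma, against 12.2% of all genes. ITGB1 fell by 2.05 ± 0.33 and CDH3 (P-cadherin) by 3.71 ± 0.47 in MDA-MB-468 (SE, n = 3 populations per line, limma adjusted p = 0.0197 and 0.0116). LGR4 rose by 1.59 ± 0.34 (limma adjusted p = 0.0361). Without the MDA-MB-468-labelled K18+Vim+ library the same 8 and NT5E passed, 9 of 24 (26.9% of all genes). ITGB1 was then at -1.81 ± 0.35, CDH3 at -3.06 ± 0.34 and LGR4 at 1.88 ± 0.33. KIT, 1 of the 8, and NT5E passed the filter only through the line where they were high, so neither is read as a result. KIT stood at 2.42 to 4.41 FPKM in HCC70 and at 0.1 to 1.60 FPKM in MDA-MB-468. NT5E stood at 0.1 to 0.904 FPKM in HCC70 and at 0.967 to 10.2 FPKM in MDA-MB-468. Markers of other cell types were low. All 6 endothelial genes were below 1 FPKM in every library, 2 of them (PECAM1 and TEK) at the floor throughout. Of 7 leukocyte and erythroid genes 5 were below 1 FPKM in every library, and the list summed to 2.45 to 7.99 FPKM. Of 8 fibroblast genes 4 were below 1 FPKM in every library, and the list summed to 4.69 FPKM in the MDA-MB-468-labelled K18+Vim+ library and to between 8.04 and 12.1 FPKM in the other libraries.

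Genes of most similar pattern were sought by the root mean square distance between centred log2 profiles over the 6 libraries. PROM1 was nearest to CD82, which encodes a tetraspanin (distance 0.10, Pearson r = 0.997), and EPCAM to ARHGDIB (0.14, r = 0.994). CD82 stood at 11.1 FPKM in K18+Vim+, 142 FPKM in K18+K14+ and 109 FPKM in K18+ of MDA-MB-468 and at 52.3, 107.04 and 102.8 FPKM in the same order in HCC70. ALCAM was nearest to RDH10, a retinol dehydrogenase (0.20, r = 0.974), CD44 to SLC44A2 (0.32, r = 0.970), MME to DNMT1, a DNA methyltransferase (0.13, r = 0.985), and BCAM to OSER1 (0.21, r = 0.964). These 6 points share 2 lines, and the MDA-MB-468-labelled K18+Vim+ library sets much of each profile. Over the other 5 libraries CD82 ranked 3 among the genes nearest to PROM1, RDH10 ranked 2 for ALCAM, DNMT1 8 for MME, OSER1 30 for BCAM, ARHGDIB 67 for EPCAM and SLC44A2 288 for CD44.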

How the data were processed

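The authors deposited FPKM values listed by Entrez Gene ID. The submitters' processing notes name TopHat2 and the build GRCh37. The read depth is unknown, and the counting tool is not given in the sources used here. Per the labels' protocols, RNA came from methanol-fixed, sorted cells. Of 18807 rows, 7 had a blank and were dropped, and of 5 IDs with 2 rows the one of larger mean was used. No further column of sample values was set aside. Symbols came from RefSeq (GRCh38.p14) for 18732 of 18795 IDs.

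Genes averaging 1 FPKM or more were fitted as log2(FPKM + 1) by limma 3.58.1 in R 4.3.3 (trended eBayes). The terms were population and line, which pairs the populations and leaves 2 residual degrees of freedom. P-values were adjusted by Benjamini-Hochberg over all genes tested, with a threshold of 0.05, and the fit was tested on simulated data. Python 3.11.15, pandas 2.3.3 and matplotlib 3.10.9 were used for levels, ratios and figures.

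The 9 genes and the lists were chosen with earlier results of these data known. All 9 were named. From each list the named genes were those with the same sign in both lines and the largest value of the smaller log2 ratio, and for each of the 7 genes tested those of nearest profile. Some genes that this rule picks are not reported here. The planned CD44 to CD24 ratio could not be had, since CD24 was at the floor throughout. LAMA5, LAMB2, PROC, HAS1, HAS2, CDH3 and NT5E fall outside this rule and were chosen after their values were seen, as was the place given to ANPEP and LAMA3. Alternatives were pseudocounts of 0.1 and 5 FPKM, no filter, a minimum of 5 FPKM, quantile normalization, no block and each library left out. Scaling to equal summed FPKM was added after the data were seen.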

Additional observations from a re-analysis of the deposited data

Results flagged for a closer look

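Some genes moved in opposite directions in MDA-MB-468 and HCC70. With 1 pair of libraries per line, these differences between the lines were not tested. BCAM in K18+Vim+ against K18+ had a log2 ratio of -2.25 in MDA-MB-468 and 0.80 in HCC70, a gap of -3.05, and against K18+K14+ -1.52 and 1.25, a gap of -2.77. PROCR in K18+Vim+ against K18+K14+ had 2.86 in MDA-MB-468 and -0.01 in HCC70, a gap of 2.87. Its HCC70 values were 0.1 and 0.110 FPKM, at or near the floor, so that sign is not read as a direction. These 3 rest on the MDA-MB-468-labelled K18+Vim+ library. In K18+K14+ against K18+, MME had -0.88 in MDA-MB-468 and 0.32 in HCC70, a gap of -1.21. PROCR had -0.59 and 0.01, a gap of -0.61, with levels near the floor. ALCAM had 0.15 and -0.39, a gap of 0.54.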

How the results depend on the processing

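With no gene passing in the 3 comparisons of populations, counts stayed at 0 under every alternative that kept all 6 libraries. When each library was left out, they ranged from 0 to 1 for K18+K14+ against K18+, from 0 to 1500 for K18+Vim+ against K18+ and from 0 to 1988 for K18+Vim+ against K18+K14+. For both comparisons of K18+Vim+ the highest count came without HCC70 K18+Vim+. For K18+K14+ against K18+ it came without HCC70 K18+K14+. For MDA-MB-468 against HCC70 the count was 1522 genes. It was 0 with no filter (3993 genes at an unadjusted p under 0.05) and 206 to 3360 with a library left out. It was 206 and 241 without the HCC70 and MDA-MB-468 K18+ libraries, 288 and 326 without the K18+K14+ libraries, and 3360 and 3344 without the K18+Vim+ libraries. Without the line as a replicate block the population counts stayed at 0 and the line count, without population as a block, was 1875.

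Under alternatives that kept all libraries, 184 values of single genes kept their direction and side of the threshold, and 4 changed sign. CD44 between the lines became -0.046 after quantile normalization and -0.16 after scaling to equal summed FPKM. BCAM became 0.0056 between the lines after quantile normalization and 0.091 for K18+Vim+ against K18+K14+ after sum scaling. Sum scaling moved the median of all genes in K18+K14+ against K18+ from -0.16 to -0.38, in K18+Vim+ against K18+K14+ from 0.06 to 0.25 and between the lines from 0.0069 to -0.22. Quantile normalization brought it to 0.0015 in K18+K14+ against K18+ and from -0.12 to 0.02 in K18+Vim+ against K18+.

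With a library left out, ranges in K18+Vim+ against K18+ were -1.88 to -1.57 for ALCAM, -3.75 to -0.56 for CD44, -3.69 to -0.65 for EPCAM, -3.19 to -0.74 for PROM1, -1.68 to -0.21 for MME, -2.18 to 0.73 for BCAM and -0.15 to 2.42 for PROCR. In K18+Vim+ against K18+K14+ they were -1.86 to -1.35 for ALCAM, -3.10 to 0.094 for CD44 and -1.59 to 1.32 for BCAM. In K18+K14+ against K18+ they were -0.37 to 0.13 for ALCAM, -1.43 to 0.24 for BCAM, -1.84 to 0.54 for CD44, -1.09 to 0.64 for EPCAM, -1.01 to 0.45 for MME, -1.16 to 0.58 for PROCR and -0.43 to 0.96 for PROM1. Between the lines they were -0.67 to 0.86 for BCAM, -0.67 to 1.19 for CD44, -0.73 to 0.86 for EPCAM and -0.83 to 0.45 for PROM1. The causes were not tested. For PROCR the -0.15 in K18+Vim+ against K18+ is a fitted value, with the K18+Vim+ and K18+ libraries of HCC70 both at the floor. The CD44 to CD24 ratio had no value under any setting.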
